A study of Homo sapiens with 6 samples.

Results

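PANC-1 cells overexpressing ESRP1 were compared with PANC-1 cells carrying the LPCX control by RNA sequencing, 1 library each, which is 2 of the 6 libraries in the study. PANC-1 is an established human pancreatic cancer cell line. The other 4 libraries are PANC-1 with ESRP2, and MIA-PaCa2, a further human pancreatic cancer line, with ESRP1, with ESRP2 and with LPCX. The labels state that the role of both ESRP proteins in pancreatic cancer progression was the question, and that both lines were kept in DMEM with 10% serum and antibiotics. They do not say whether a culture was 1 clone or a pool. Abundance was given for 59128 RefSeq transcripts as TPM, a unit that corrects for the length of a transcript and in which each library sums to 1000000. Gene levels were taken for the 19349 of 27408 genes that have an NM_ transcript (RefSeq's prefix for protein-coding transcripts). Transcript shares were taken for the 4387 of these genes that reached 20 TPM in both libraries and have 2 or more transcripts. With 1 library a group there is no replicate spread, no p-value is given for any difference, and the number of reads behind a TPM is unknown.

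ESRP1 is an epithelial splicing regulatory protein. It binds GU-rich stretches of pre-mRNA and steers exon choice, commonly favouring an exon when bound downstream of it and skipping when bound upstream or within it. Epithelial cells express it, cells that pass through an epithelial-mesenchymal transition lose it, and its known targets include CD44, ENAH, CTNND1 and FGFR2.

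ESRP1 stood at 491 TPM in PANC-1 ESRP1, against 0.261 TPM in PANC-1 LPCX and 0.172 TPM in PANC-1 ESRP2. The introduced gene was thus present in the library labelled with it. Its paralog ESRP2 was already present in the line, at 37.7 TPM with ESRP1 and 34.8 TPM with LPCX. Of 10 ductal markers, KRT8 was at 823 and 684 TPM and KRT18 at 737 and 695 TPM with ESRP1 and LPCX, while KRT19 was at 417 TPM with ESRP1 and 502 TPM with LPCX and KRT7 was near 2 TPM in both. Of the 8 ductal markers measured, 5 had a log2 ratio above 0. All 16 acinar and islet markers together summed to 4.02 TPM with ESRP1 and 3.73 TPM with LPCX, and 7 of them were at 0 in both. Of 12 leukocyte markers 11 were under 1 TPM in both, the exception being CD68. The 13 fibroblast and endothelial markers summed to 109 TPM with ESRP1 and 67.4 TPM with LPCX, of which COL1A1 made up nearly all, while the other 12 were under 1 TPM in both and DCN, FAP and CDH5 were at 0. Transcripts without a coding sequence took 9.82% of all TPM with ESRP1 and 12.97% with LPCX, and the entries MIR4461 and MIR6723 alone took 4.66% and 7.002%. The part of this difference in the gene ratios below was not tested beyond the 2 scalings given with them.

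The question closest to the function of ESRP1 was which exons entered or left the mRNA. Inclusion of a cassette exon was expressed as a percentage, the TPM of the transcripts holding it over that TPM plus the TPM of the transcripts that skip it. It could be read for 1416 internal exons of 964 genes. Inclusion was at least 10 percentage points higher with ESRP1 for 55 exons of 41 genes (3.88% of all exons measured) and at least 10 points lower for 48 exons of 43 genes (3.39%), or 7.27% of exons and 8.61% of genes in either direction. At 20 points the numbers were 13 exons of 6 genes higher and 7 exons of 5 genes lower, together 1.41% of exons. Among the higher exons of that size were those of CD44, ENAH, LRRC14, IL4R and BAIAP2, and the lower ones lay in POMZP3, ARHGAP17, TMEM44, PRC1 and CBWD5. Exons of 1 gene that sit in the same transcripts carry the same value and are not separate observations. Exons described below beyond the 12 most positive and the 8 most negative differences, and those whose sequence is shown, were chosen after their values were seen.

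**Figure D1:**
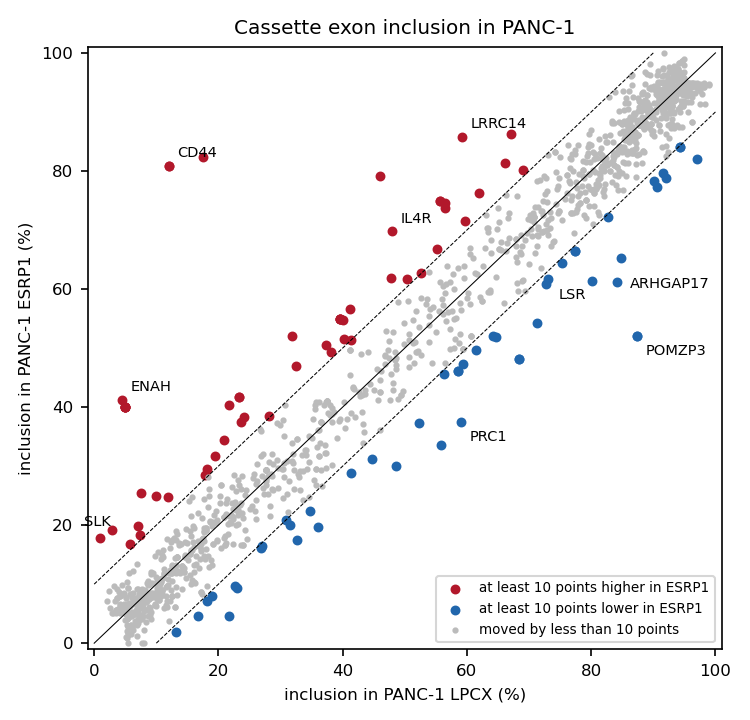
Inclusion of each of the 1416 cassette exons in PANC-1 ESRP1 (vertical axis, %) against PANC-1 LPCX (horizontal axis, %). Each point is 1 exon, the solid line is equality and the dashed lines mark 10 points. The exons of CD44 at 80.9% with ESRP1 and 12.05% with LPCX lie farthest from the line.

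CD44, the cell-surface receptor for hyaluronan, showed the largest difference of all exons. Its variable exons v8 (chr11:35208105-35208206, plus strand) and v9 (chr11:35209965-35210054) were included at 80.9% with ESRP1, against 12.05% with LPCX. The next exon, v10 (chr11:35211246-35211449), stood at 82.3% with ESRP1 and 17.5% with LPCX. The 5 variable exons upstream of them were included at 40.05% with ESRP1 and 4.91% with LPCX, so that the block next to the constant downstream exons was the most included of the variable exons in both libraries. The sequences of these 3 exons are shown because they carry the largest difference, with the exon in capitals and 12 bases of the neighbouring exons in lower case. All sequences are from GENCODE 29 transcripts on GRCh38, 5′ to 3′ on the sense strand, and the v8 exon holds TGGTGG.
CD44 v8: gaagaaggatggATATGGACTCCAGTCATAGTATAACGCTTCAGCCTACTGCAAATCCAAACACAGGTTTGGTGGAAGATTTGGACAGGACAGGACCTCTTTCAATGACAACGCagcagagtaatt
CD44 v9: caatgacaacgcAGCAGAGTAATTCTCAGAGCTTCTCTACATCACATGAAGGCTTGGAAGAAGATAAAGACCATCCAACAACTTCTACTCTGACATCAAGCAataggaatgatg
CD44 v10: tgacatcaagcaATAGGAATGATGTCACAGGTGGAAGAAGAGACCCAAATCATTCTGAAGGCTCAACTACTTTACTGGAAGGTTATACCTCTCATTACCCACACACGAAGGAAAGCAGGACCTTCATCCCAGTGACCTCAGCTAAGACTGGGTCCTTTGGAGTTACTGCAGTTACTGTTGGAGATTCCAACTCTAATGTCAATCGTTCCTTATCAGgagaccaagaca

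By transcript, the standard form of CD44 without variable exons, NM_001001391 with 1083 coding bases, made up 16.0% of CD44 TPM in PANC-1 ESRP1, against 81.1% in PANC-1 LPCX. NM_001001390, which carries v8 to v10 and has 1479 coding bases, made up 40.9% with ESRP1 and 7.13% with LPCX. NM_001001389, with 5 more variable exons and 2097 coding bases, made up 36.8% with ESRP1 and 4.49% with LPCX. The 2 longer forms together were thus the main CD44 message with ESRP1, and the standard form the main one with LPCX. The gene as a whole stood at 906 TPM with ESRP1 and 772 TPM with LPCX, a log2 ratio of 0.23.

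**Figure D2:**
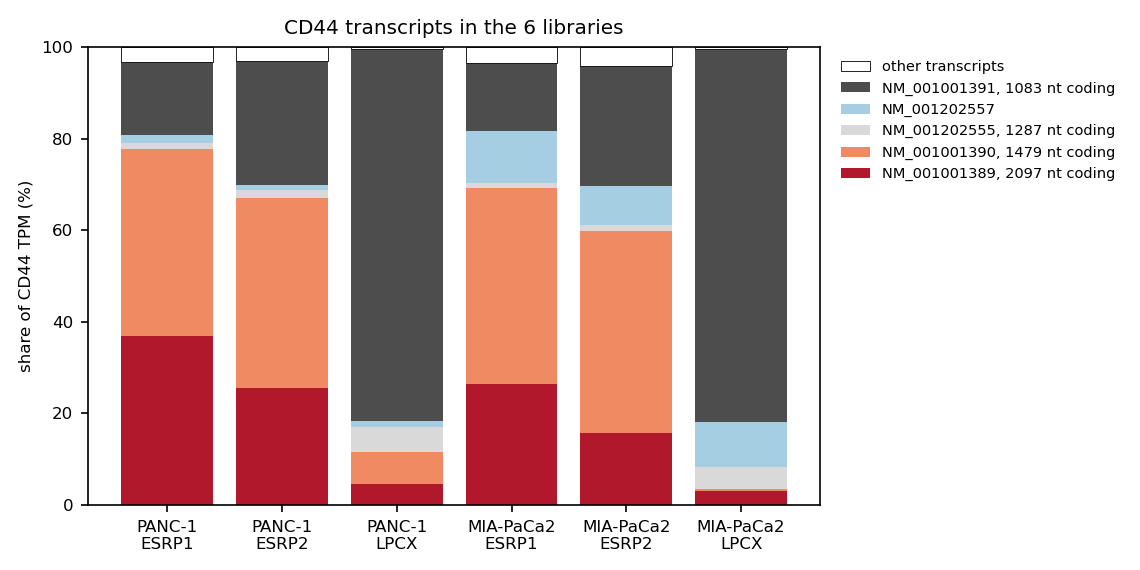
Share of CD44 TPM (vertical axis, %) held by each transcript in the 6 libraries (bars, with coding length in the key). The standard form (dark grey) holds 16.0% of CD44 with ESRP1 and 81.1% with LPCX in PANC-1.

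Coding exons of ENAH and SLK were also more included with ESRP1. ENAH, an actin regulator of the Ena/VASP family, included an exon at chr1:225504991-225505053 (minus strand) at 41.2% with ESRP1 and 4.45% with LPCX. SLK, a Ste20-like kinase of the cytoskeleton, included an exon at chr10:104010816-104010908 (plus strand) at 17.8% with ESRP1 and 0.999% with LPCX. The ENAH and SLK exons were thus almost absent with LPCX.
ENAH: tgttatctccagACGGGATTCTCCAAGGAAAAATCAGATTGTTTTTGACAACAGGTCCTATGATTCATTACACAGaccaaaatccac
SLK: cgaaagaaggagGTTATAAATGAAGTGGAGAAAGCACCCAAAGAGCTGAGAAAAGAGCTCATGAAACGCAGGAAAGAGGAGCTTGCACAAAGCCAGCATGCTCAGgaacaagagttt

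Exons of at most 27 bases made up 5 of 55 higher exons (9.09%), 4 of 48 lower exons (8.33%) and 53 of 1313 others (4.04%). Among the lower ones were exons of 6 bases in DCTN2, a dynactin subunit, at 9.38% with ESRP1 and 23.02% with LPCX, and of 27 bases in MARK3, a microtubule-affinity kinase, at 20.8% with ESRP1 and 30.9% with LPCX. Among the higher ones, DNM2, the membrane-fission GTPase dynamin 2, included a 12-base exon at chr19:10808569-10808580 (plus strand) at 86.3% with ESRP1 and 67.1% with LPCX. USO1, a tethering factor of the Golgi, included exons of 12 bases (chr4:75760594-75760605) and 21 bases (chr4:75795336-75795356, both plus strand) at 41.7% with ESRP1 and 23.2% with LPCX. NUMB, an endocytic adaptor that restrains Notch, included a 33-base exon at chr14:73316390-73316422 (minus strand) at 54.7% with ESRP1 and 40.0% with LPCX. The DNM2, USO1 and NUMB exons are shown because their small size makes the added stretch visible whole. The exon of FNIP1, a folliculin partner, at chr5:131710578-131710661 (minus strand) is longer and stood at 40.4% with ESRP1 and 21.8% with LPCX.
DNM2: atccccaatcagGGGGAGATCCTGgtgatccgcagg
USO1, first exon: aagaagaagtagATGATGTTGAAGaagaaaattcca
USO1, second exon: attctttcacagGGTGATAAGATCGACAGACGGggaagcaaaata
NUMB: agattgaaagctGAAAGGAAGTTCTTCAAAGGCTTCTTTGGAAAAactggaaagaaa
FNIP1: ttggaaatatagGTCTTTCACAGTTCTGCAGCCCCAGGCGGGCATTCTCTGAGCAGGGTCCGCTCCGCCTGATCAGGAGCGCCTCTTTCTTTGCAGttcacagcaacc

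Of the remaining higher exons, that of VPS39, a subunit of the endosomal HOPS tether, stood at 19.2% with ESRP1 and 2.85% with LPCX. BAIAP2, which links small GTPases to actin, had an exon not wholly within a coding sequence at 52.0% with ESRP1 and 31.9% with LPCX. The splicing regulator MBNL2 had a 36-base exon at 74.6% with ESRP1 and 56.5% with LPCX. Both NEDD1 exons, in a gene for a centrosomal protein that recruits gamma-tubulin, were at 75.0% with ESRP1 and 55.7% with LPCX. Exons not wholly within a coding sequence were also higher in IL4R, the interleukin 4 receptor chain, at 69.8% with ESRP1 and 47.9% with LPCX. Another was that of LRRC14, at 85.8% with ESRP1 and 59.2% with LPCX. YAP1, the Hippo pathway coactivator, was just past the step, with a 48-base exon at 51.4% with ESRP1 and 41.4% with LPCX.

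Of the genes with a lower exon, AKAP13 also had a higher one. ARHGAP17, a GTPase-activating protein of tight junctions, had an exon at 61.2% with ESRP1 and 84.2% with LPCX. PRC1, which bundles microtubules at the spindle midzone, had a 42-base exon (chr15:90969079-90969120, minus strand) at 37.4% with ESRP1 and 59.05% with LPCX. MYOF, the membrane-repair protein myoferlin, had a 39-base exon (chr10:93392917-93392955, minus strand) at 82.1% with ESRP1 and 97.0% with LPCX. The PRC1 and MYOF exons are shown as examples of coding exons included less with ESRP1.
PRC1: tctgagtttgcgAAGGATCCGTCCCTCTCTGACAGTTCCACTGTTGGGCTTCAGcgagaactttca
MYOF: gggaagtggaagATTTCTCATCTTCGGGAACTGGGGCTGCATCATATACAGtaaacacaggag

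LSR, a lipoprotein receptor of tricellular junctions, had an exon at 61.4% with ESRP1 and 80.1% with LPCX. The transcription factor subunit NFYA had one at 29.9% with ESRP1 and 48.6% with LPCX. YBX3, a cold-shock domain protein, had one at 54.2% with ESRP1 and 71.3% with LPCX. The lower exons of TMEM44, at 33.6% with ESRP1 and 55.8% with LPCX, and of RAB9A, at 65.2% with ESRP1 and 84.8% with LPCX, were of similar size. POMZP3 exons stood at 52.0% with ESRP1 and 87.4% with LPCX, and CBWD5 exons at 48.2% with ESRP1 and 68.4% with LPCX. Both are uncertain, because near-identical gene copies can share their reads.

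The exons that moved were compared with the others in length, coding potential and sequence, as a description. Their length was a multiple of 3 for 37 of 55 higher exons (67.3%), 34 of 48 lower exons (70.8%) and 781 of 1313 others (59.5%). The median length was 72 bases for the higher, 94 bases for the lower and 102 bases for the other exons, and 81.8%, 64.6% and 72.8% of them were coding. An exon counted as coding if it lay wholly within the coding sequence of a transcript, so an exon with a start or stop codon may not count. Exons were searched on the sense strand for TGGTGG, for its shifted form GGTGGT and for the remaining shift GTGGTG, which overlap each other. At least 1 of the hexamers occurred in 8 higher exons (14.5%), 6 lower exons (12.5%) and 141 others (10.7%). These shares do not allow for exon length. Per 1000 bases there were 2.46 matches in the higher, 1.69 in the lower and 1.21 in the other exons, overlapping matches included. The 3 groups held 4468, 5321 and 193084 bases. Introns were not searched.

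The same exons were read in MIA-PaCa2, whose ESRP1 and LPCX libraries are separate from those of PANC-1. Among the 1103 exons measurable in both lines, 4.81% were at least 10 points higher and 3.26% at least 10 points lower with ESRP1 in MIA-PaCa2. Of the 43 exons that were higher in PANC-1, 20 (in 11 genes) were also higher in MIA-PaCa2 and 0 were lower. All 12 of the measurable exons that were at least 20 points higher in PANC-1 were at least 10 points higher in MIA-PaCa2, and they lie in 5 genes. Of the 33 exons that were lower in PANC-1, 9 were also lower and 1, in NF2, was higher. Of the 1027 exons that moved less in PANC-1, 32 were higher and 27 lower.

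The size of the difference was close in the 2 lines for CD44 v8 and not for ENAH and SLK. CD44 v8 was at 72.6% in MIA-PaCa2 ESRP1 and 3.67% in MIA-PaCa2 LPCX, a difference of 68.9 points in either line. The ENAH exon reached 65.6% in MIA-PaCa2 ESRP1, against 2.40% in MIA-PaCa2 LPCX, a difference of 63.3 points there and 36.8 points in PANC-1. The SLK exon reached 45.6% in MIA-PaCa2 ESRP1, against 0.827% in MIA-PaCa2 LPCX, a difference of 44.8 points there and 16.8 points in PANC-1. PANC-1 LPCX, which holds 34.8 TPM of ESRP2 where MIA-PaCa2 LPCX holds 0.0704 TPM, included several of these exons more often than MIA-PaCa2 LPCX, such as that of DNM2 at 67.1% and 15.3% and those of USO1 at 23.2% and 1.04%. For the FNIP1 exon the order was the other way, with 21.8% in PANC-1 LPCX and 41.04% in MIA-PaCa2 LPCX. Whether the ESRP2 level bears on these starting values was not tested.

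With ESRP2 in PANC-1, measured against the same LPCX library, inclusion was 70.1% for CD44 v8, 27.9% for ENAH, 54.3% for USO1 and 15.7% for SLK. ESRP2 thus gave a value below that with ESRP1 for CD44 and ENAH and above it for USO1. The levels of the introduced genes were unequal, with ESRP2 at 308 TPM in its library and ESRP1 at 491 TPM in its own. The MYOF exon was at 65.7% with ESRP2 and 82.1% with ESRP1, where LPCX had 97.0%. The exon of RAB9A stood at 88.9% with ESRP2 and 65.2% with ESRP1, where LPCX had 84.8%.

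**Figure D3:**
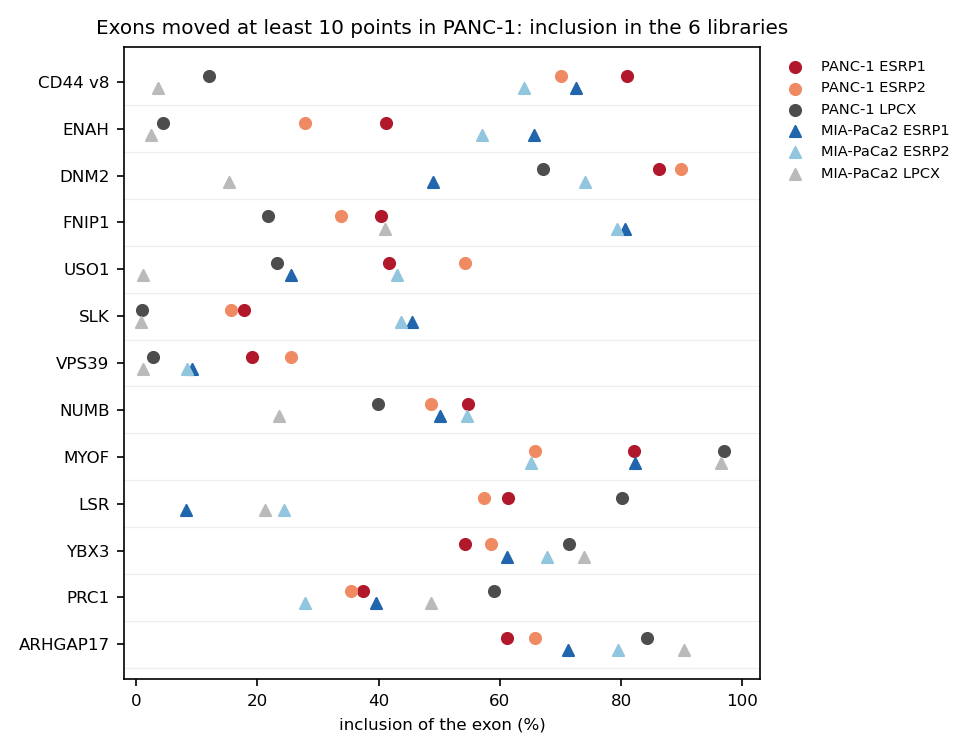
Inclusion (horizontal axis, %) of 1 exon from each of 13 genes in the 6 libraries. Circles are PANC-1 and triangles MIA-PaCa2. The exons from CD44 to NUMB lie higher and those from MYOF to ARHGAP17 lower in PANC-1 ESRP1 than in PANC-1 LPCX.

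Shares of whole transcripts also take in changes of start, end and several exons at once. Of 8257 transcripts with at least 10% of their gene in either library, 569 differed by at least 10 points between PANC-1 ESRP1 and PANC-1 LPCX (6.89%), 300 with a higher and 269 with a lower share. They lie in 350 of 4387 genes (7.98%), and 68 transcripts (0.824%) of 45 genes (1.03%) differed by at least 20 points. The differences were more frequent at low levels, with 9.97% of transcripts in genes of 20 to 50 TPM, 4.45% at 50 to 100 TPM and 2.63% above 100 TPM. How many of them lie within the error of the quantification was not tested. At the threshold of 20 TPM, SAYSD1 entered with a lower level of 20.0016 TPM, and FBXO38 stayed out with 19.9909 TPM.

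After CD44, the largest share difference was in CYB561A3, a lysosomal ferrireductase. Its transcript NM_001300763 held 55.8% of the gene with ESRP1 and 8.63% with LPCX in PANC-1, and 48.9% with ESRP1 and 0.0% with LPCX in MIA-PaCa2. This transcript was thus listed at 0 in MIA-PaCa2 LPCX and already present in PANC-1 LPCX. TUFT1, which encodes tuftelin, had NM_001126337 at 30.9% with ESRP1 and 66.3% with LPCX. CTNND1, or p120-catenin, which holds cadherins at the membrane, had NM_001085468 at 61.2% with ESRP1 and 29.03% with LPCX, while NM_001085460 was at 5.09% with ESRP1 and 33.0% with LPCX. The CTNND1 transcripts moved in the same directions in MIA-PaCa2, NM_001085468 being at 49.6% with ESRP1 and 26.3% with LPCX, and NM_001085460 at 11.2% with ESRP1 and 41.4% with LPCX. MLPH, the melanosome-transport protein melanophilin, had NM_001042467 at 61.6% with ESRP1 and 31.0% with LPCX. BCL2L2, an antiapoptotic BCL2 relative, had NM_004050 at 52.1% with ESRP1 and 23.9% with LPCX, and at 33.8% and 0.00346% in MIA-PaCa2.

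Other large share differences were of genes at 20.3 to 36.0 TPM. Of the genes above, TUFT1 was near that level, at 38.1 TPM with ESRP1 and 31.4 TPM with LPCX. So was MLPH, at 34.5 and 40.0 TPM. BSCL2, the lipid-droplet protein seipin, had NM_032667 at 33.5% with ESRP1 and 73.1% with LPCX, at a gene level of 21.7 and 21.95 TPM. FAM20B, a xylose kinase of proteoglycan synthesis, had NM_001324310 at 16.1% with ESRP1 and 53.2% with LPCX. RAB40C, a small GTPase, had NM_001172664 at 0.0% with ESRP1 and 34.1% with LPCX. SEMA7A, a membrane-anchored semaphorin, had NM_003612 at 98.0% with ESRP1 and 69.3% with LPCX. The FAM20B difference had the opposite sign in MIA-PaCa2, with 40.7% with ESRP1 and 22.6% with LPCX. RALGAPB, a subunit of a Ral GTPase-activating complex, had NM_001282917 at 60.9% with ESRP1 and 32.9% with LPCX. The RALGAPB transcript was at 58.3% with ESRP1 and 58.0% with LPCX in MIA-PaCa2, a difference of 0.311 points. C19orf47 had NM_001256441 at 40.6% with ESRP1 and 72.2% with LPCX, while NR_046202, noncoding in RefSeq, was at 51.5% with ESRP1 and 27.8% with LPCX. Over all 977 genes with a noncoding transcript that could be read, the noncoding share was at least 10 points higher in 13 and lower in 8.

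In MIA-PaCa2, 6640 of the transcripts could be read, and 6.90% of these differed by at least 10 points between ESRP1 and LPCX. Of 406 readable transcripts that moved in PANC-1, 76 passed the 10-point step in MIA-PaCa2 with the same sign and 23 with the opposite one. Of 49 that moved at least 20 points, 25 did so with the same sign and 4 with the opposite one. Transcripts of the same gene rise and fall against each other, so these counts are not of separate observations. Large share differences of transcripts were thus seen again in MIA-PaCa2 more often than small ones, a comparison that was not tested.

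ESRP targets known from earlier work were gathered in a list of 49 genes, chosen with results from these libraries in view and so not independent of them. Shares could be read in 38 of them, and 20 had a transcript that moved by at least 10 points, against 7.98% of all genes. Beside CD44, ENAH and CTNND1, ARHGAP17 and LSR were among those with a share difference of at least 20 points. Smaller ones included APLP2, an amyloid precursor relative, with NM_001142276 at 33.2% with ESRP1 and 16.9% with LPCX, and TCF7L2, a Wnt pathway transcription factor, with NM_001146274 at 22.2% with ESRP1 and 8.27% with LPCX. PLEKHA1, a phosphoinositide-binding adaptor, had NM_021622 at 49.9% with ESRP1 and 30.9% with LPCX. Among targets that moved by less than 10 points were ITGA6, with a largest difference of 8.24 points, ARHGEF11 with 4.74 points, EXOC7 with 2.77 points and CSNK1D with 1.32 points. FGFR2, whose epithelial exon is a classical ESRP target, was below the 20 TPM needed, so its exon choice was not read. In level, the 45 measured members had a median log2 ratio of 0.21 (0.125 after median ratio scaling), against 0.09 (0.01 after scaling) for all measured genes. Of the 45 members 4 were 1.5-fold higher, against 0.511% of all measured genes, and 0 were lower, against 0.295%. The 4 were FGFR2, GRHL1, SPINT1 and OSBPL3, an oxysterol-binding protein relative at 11.4 TPM with ESRP1 and 5.96 TPM with LPCX. All 4 were between 5 and 20 TPM in their higher library, where 1.75% of genes passed 1.5-fold in either direction. After median ratio scaling SPINT1, at 0.55, was below 1.5-fold. These examples beyond the largest were picked after their values were seen.

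Few genes differed in level. Of 10177 genes with at least 5 TPM in either library, 7 were at least 2-fold higher with ESRP1 (0.0688%), ESRP1 itself included, and 4 at least 2-fold lower (0.0393%), together 0.108%. After median ratio scaling the 2-fold numbers were 5 higher and 9 lower, and after rescaling over NM_ transcripts 8 higher and 8 lower. At 1.5-fold, 52 genes were higher (0.511%) and 30 lower (0.295%), together 0.806%. The balance of directions depended on the scaling here too, since 34 genes were higher and 54 lower at 1.5-fold after median ratio scaling, and 52 higher and 50 lower after rescaling over NM_ transcripts. Ratios were shifted upward as deposited, with a median log2 ratio of 0.09 and 71.9% of genes above 0, and 90% of genes lay between -0.22 and 0.33. A ratio past 1.5-fold in either direction was more common at 5 to 20 TPM (1.75% of genes) than at 20 to 100 TPM (0.388%) or above 100 TPM (0.330%). In pooled cells a difference in every cell and a difference in some of them cannot be told apart.

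**Figure D4:**
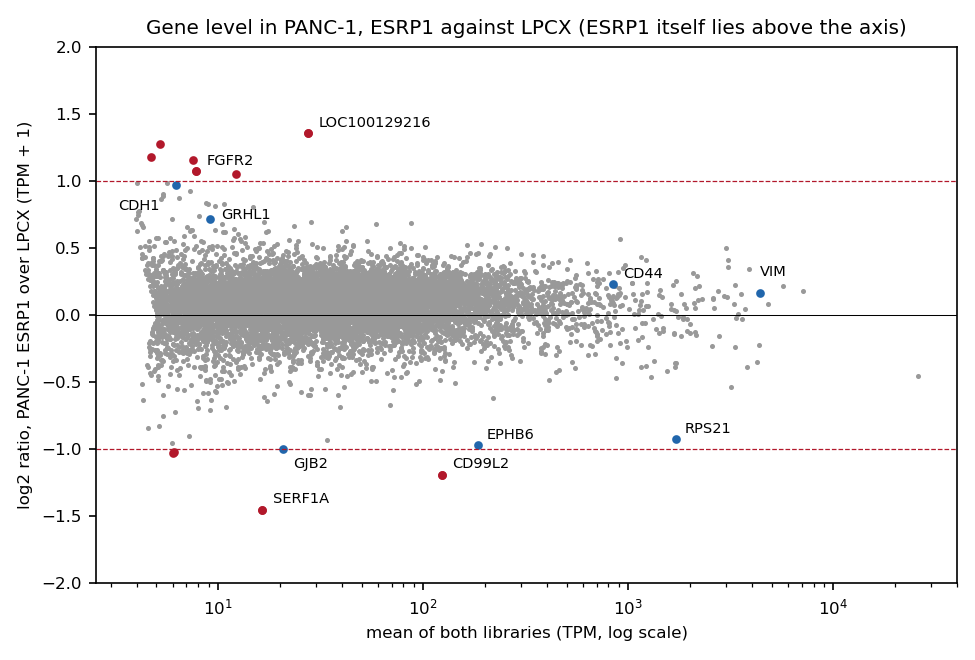
Log2 ratio of PANC-1 ESRP1 over PANC-1 LPCX (vertical axis, TPM + 1) against the mean of both libraries (horizontal axis, TPM, log scale) for each measured gene. Red points are at least 2-fold apart, and other named genes are blue. ESRP1, at 8.61, lies above the axis. The 90% of genes in the middle lie between -0.22 and 0.33.

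The genes that were higher were mostly of low level. LOC100129216 was at 39.8 TPM with ESRP1 and 14.9 TPM with LPCX, a log2 ratio of 1.36. FGFR2, the fibroblast growth factor receptor, was at 10.9 TPM with ESRP1 and 4.64 TPM with LPCX (1.08). ANKRD1, an ankyrin repeat protein known as a YAP target, was at 7.80 TPM with ESRP1 and 2.62 TPM with LPCX (1.28). DMC1, a meiotic recombinase, was at 10.7 TPM with ESRP1 and 4.26 TPM with LPCX (1.16, but 0.11 after rescaling over NM_ transcripts, which leaves out its noncoding transcript), and GALNT16, an O-glycosylation enzyme, at 16.9 and 7.59 TPM (1.06). C4orf48 completed those past 2-fold, at 6.91 TPM with ESRP1 and 2.49 TPM with LPCX. After median ratio scaling FGFR2, at 0.998, and GALNT16, at 0.97, were below 2-fold. These genes were also above LPCX in PANC-1 ESRP2, which is set against the same LPCX library. There LOC100129216 stood at 37.1 TPM, FGFR2 at 8.14, ANKRD1 at 8.16, DMC1 at 10.9, GALNT16 at 14.6 and C4orf48 at 5.38 TPM. Whether these differences come from the constructs or from the shared LPCX library was not tested.

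Below 2-fold came, among others, both an epithelial and a neural cadherin. CDH1, the epithelial cadherin, was at 8.59 TPM with ESRP1 and 3.89 TPM with LPCX (log2 ratio 0.97). DSP, the desmosomal linker desmoplakin, was at 7.30 TPM with ESRP1 and 3.43 TPM with LPCX (0.91). CDH2, the neural cadherin, was at 51.8 TPM with ESRP1 and 32.4 TPM with LPCX (0.66, and 0.57 after median ratio scaling, which is below 1.5-fold). COL1A1, a chain of collagen type I, was at 108 TPM with ESRP1 and 66.4 TPM with LPCX (0.69), while the other defining fibroblast markers DCN, LUM and FAP were at 0.041 TPM or less in both. The drug efflux pump ABCG2 was at 20.8 TPM with ESRP1 and 12.5 TPM with LPCX (0.69). SUDS3, of the SIN3 corepressor complex, was at 72.7 and 44.9 TPM (0.68), and the secretory-pathway kinase FAM20C at 21.5 and 13.5 TPM (0.63). With ESRP2 in PANC-1, CDH1 was at 6.98 TPM, DSP at 5.20, CDH2 at 47.2 and COL1A1 at 93.1 TPM. ABCG2 was at 24.9 TPM with ESRP2, SUDS3 at 70.6 and FAM20C at 21.0 TPM, so all 7 were above the same LPCX library.

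The remaining genes among the highest 15 were ALPPL2, MINOS1-NBL1, PCSK1N, IGFBP7, DEPTOR and U2AF1L5, with 5.67 to 9.86 TPM with ESRP1 and 2.37 to 4.70 TPM with LPCX. At 20 TPM or more, DPM3, PDZD4 and DMKN were also among the highest, with log2 ratios of 0.70, 0.66 and 0.63. U2AF1L5 is a near copy of U2AF1, MINOS1-NBL1 reads through into NBL1, and the log2 ratios of the sums with these partners were 0.19 and 0.24. These 2 entries are therefore uncertain.

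Among the lower genes, CD99L2, a membrane protein related to CD99, was at 74.9 TPM with ESRP1 and 172 TPM with LPCX, a log2 ratio of -1.19. EPHB6, an Eph receptor without kinase activity, was at 124 TPM with ESRP1 and 245 TPM with LPCX (-0.97). GJB2, the gap junction protein connexin 26, was at 13.4 TPM with ESRP1 and 27.8 TPM with LPCX (-0.998). In PANC-1 ESRP2, which is set against the same LPCX library, CD99L2 stood at 94.96 TPM, EPHB6 at 79.2 TPM and GJB2 at 14.3 TPM. CNIH3, an AMPA receptor auxiliary protein, was at 3.60 TPM with ESRP1 and 8.38 TPM with LPCX (-1.03), and the calcium channel TRPV6 at 3.66 and 8.45 TPM (-1.02). RPS21, a protein of the small ribosomal subunit, was at 1178 TPM with ESRP1 and 2241 TPM with LPCX (-0.93).

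SERF1A had the lowest ratio, at 8.33 TPM with ESRP1 and 24.5 TPM with LPCX (-1.45), but its near-identical copy SERF1B was at 95.1 TPM with ESRP1 and 66.3 TPM with LPCX. The log2 ratio of their sum was 0.19, so the entry is uncertain. Others among the lowest were CORO6, a coronin, at 23.0 TPM with ESRP1 and 44.9 TPM with LPCX, COL13A1, a transmembrane collagen, at 3.72 and 8.14 TPM, and PRSS3, a trypsinogen, at 4.72 and 9.70 TPM. PLA2G4B, HIST1H4E, CCDC159, CORO7 and SRPX2 had log2 ratios between -0.84 and -0.71. PLA2G4B and CORO7 share sequence with readthrough entries and are uncertain, since the log2 ratios of the sums were -0.56 with JMJD7-PLA2G4B and -0.29 with CORO7-PAM16, both short of 1.5-fold. At 20 TPM or more, S100A16, OCIAD2, CES1 and CRIP1 were lower, with log2 ratios of -0.69, -0.67, -0.64 and -0.62.

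Few of these differences in level recurred in MIA-PaCa2. Of 23 genes other than ESRP1 that were 1.5-fold higher in PANC-1 and measured in MIA-PaCa2, 1 was 1.5-fold higher there and 1 lower, and 16 (69.6%) were above 0, against 65.0% of all 9180 genes measured in both. The 1 that was higher in both was GRHL1, a grainyhead-like transcription factor of epithelia, at 11.6 TPM with ESRP1 and 6.68 TPM with LPCX in PANC-1 and at 8.79 and 3.21 TPM in MIA-PaCa2. Among all 9180 genes, ESRP1 included, 33 were 1.5-fold higher and 15 were 1.5-fold lower in MIA-PaCa2. Of 14 genes 1.5-fold lower in PANC-1, 4 (28.6%) were above 0 in MIA-PaCa2, against the same 65.0%. In MIA-PaCa2, 2 of the 14 were 1.5-fold lower and 1 higher. CD99L2 was one of the 2, at 28.2 TPM with ESRP1 and 49.5 TPM with LPCX in MIA-PaCa2. The other was PLA2G4B, at 2.45 and 5.35 TPM there. The genes of opposite sign were U2AF1L5 and SERF1A. PLA2G4B, U2AF1L5 and SERF1A are among the entries called uncertain above. CDH1, CDH2, COL1A1, EPHB6 and ANKRD1 were each below 1 TPM in both MIA-PaCa2 libraries, so they could not be compared.

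Of the genes commonly used to place cells between epithelial and mesenchymal states, EPCAM was at 27.8 TPM with ESRP1 and 24.3 TPM with LPCX, with a log2 ratio of 0.18. VIM, the intermediate filament vimentin, was at 4647 TPM with ESRP1 and 4142 TPM with LPCX (0.17). ZEB1, a repressor of epithelial genes including ESRP1, was at 20.4 TPM with ESRP1 and 19.2 TPM with LPCX (0.08, and -0.002 after median ratio scaling). These 3 lay within the range that held 90% of all genes. The epithelial junction and identity list had 31 measured members, 23 of them above 0, where 71.9% of all measured genes were. Its median log2 ratio was 0.17 (0.09 after median ratio scaling), against 0.09 (0.01 after scaling) for all measured genes. CLDN4, at 68.5 TPM with ESRP1 and 83.2 TPM with LPCX (-0.28), and KRT19 (-0.27) were among those below 0. Of the 31 members 4 were 1.5-fold higher, against 0.511% of all measured genes, and 0 were 1.5-fold lower. The 4 were CDH1, DSP, GRHL1 and SPINT1, the last not after median ratio scaling. All 4 were between 5 and 20 TPM in their higher library, where 1.75% of genes passed 1.5-fold in either direction. GRHL1 and SPINT1 are also among the 4 such members of the ESRP target list. The mesenchymal list had 21 measured members, of which COL1A1 and CDH2 were 1.5-fold higher, the second not after median ratio scaling, 0 were lower, and the median was 0.08 (-0.002 after median ratio scaling).

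Gene groups outside adhesion differed by small amounts, and each is set beside all measured genes, which had a median of 0.09, or 0.01 after median ratio scaling, and of which 71.9% were above 0. Cholesterol synthesis had 25 of 25 measured members above 0, with a median of 0.28 (0.19 after scaling). HMGCS1, which makes the HMG-CoA of the pathway, was at 48.5 TPM with ESRP1 and 33.8 TPM with LPCX, and SQLE, squalene epoxidase, at 158 and 116 TPM. PMVK, a mevalonate pathway kinase, was at 71.6 TPM with ESRP1 and 53.8 TPM with LPCX, and DHCR7, of the last step of cholesterol synthesis, at 389 and 295 TPM. In this list 0 members reached 1.5-fold. With ESRP2 in PANC-1, set against the same LPCX library, HMGCS1 was at 51.1 TPM, SQLE at 164 TPM and PMVK at 63.8 TPM. In MIA-PaCa2 the median of this list was 0.15, against 0.04 for all genes there.

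Fatty acid synthesis had 12 of 13 members above 0 and a median of 0.24, with the desaturase SCD at 1324 TPM with ESRP1 and 979 TPM with LPCX, and ACSS2, which makes acetyl-CoA from acetate, at 19.7 and 13.3 TPM. The G1/S and DNA replication list had 41 of 51 above 0 and a median of 0.19, with the replicative helicase subunit MCM3 at 246 TPM with ESRP1 and 179 TPM with LPCX. Hypoxia and glycolysis had 32 of 34 above 0 and a median of 0.19, with lactate dehydrogenase A (LDHA) at 890 TPM with ESRP1 and 717 TPM with LPCX. In these 3 lists 0 members reached 1.5-fold in either direction. The interferon list had 21 of 29 above 0 and a median of 0.14 (0.05 after median ratio scaling), with 0 members past 1.5-fold. It held IFIT2, an interferon-induced antiviral protein, at 178 TPM with ESRP1 and 135 TPM with LPCX.

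Lower medians were found for cytosolic ribosomal proteins, with 22 of 65 above 0 and a median of -0.09, and for the respiratory chain, with 20 of 44 above 0 and a median of -0.03. RPS21 was the 1 ribosomal protein gene past 1.5-fold, while RPLP2, of the ribosomal stalk, was at 3490 TPM with ESRP1 and 2471 TPM with LPCX. Across 9204 genes the log2 ratio went with transcript length (Spearman 0.231, a description), with medians of -0.02 below 1000 bases, 0.05 at 1000 to 2000 bases, 0.10 at 2000 to 4000 bases and 0.13 from 4000 bases. Ribosomal protein transcripts are short, and the part of length in the list medians was not tested. The NF-kB and cytokine list had 7 of 17 above 0 and a median of -0.02. Its lowest members were NFKBIZ, an atypical IkB protein, at 8.12 TPM with ESRP1 and 13.6 TPM with LPCX, and CCL2, a monocyte chemokine, at 19.1 and 25.9 TPM.

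The ATF4 and serine synthesis list had 13 of 25 above 0 and a median of 0.03, which was -0.06 after median ratio scaling and -0.02 after rescaling over NM_ transcripts. PHGDH, the first enzyme of serine synthesis, was at 26.7 TPM with ESRP1 and 39.4 TPM with LPCX, and NUPR1, a stress-induced chromatin protein, at 8.43 and 12.5 TPM. ITGB5, an integrin subunit, was at 398 TPM with ESRP1 and 291 TPM with LPCX, in a list of integrins and laminins with 8 of 15 members above 0 and a median of 0.01 (-0.08 after median ratio scaling and -0.04 after rescaling over NM_ transcripts). Of 31 measured splicing regulators ESRP1 alone passed 1.5-fold, and next was PTBP3, a polypyrimidine-tract binding protein, at 76.2 TPM with ESRP1 and 55.8 TPM with LPCX. In MIA-PaCa2 it was at 54.0 TPM with ESRP1 and 39.8 TPM with LPCX, giving log2 ratios of 0.44 in PANC-1 and 0.43 in MIA-PaCa2.

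The remaining lists had medians between 0.02 and 0.21, and their counts above 0 are to be read against 71.9% for all measured genes. G2/M and mitosis had 32 of 40 members above 0 and a median of 0.11, the unfolded protein response 18 of 22 and 0.11, and Wnt pathway genes 16 of 18 and 0.16. TCF7, a Wnt pathway transcription factor, went against its list at 4.92 TPM with ESRP1 and 7.68 TPM with LPCX. Targets of YAP and TEAD had 18 of 24 above 0 and a median of 0.09, and while ANKRD1 was 2-fold higher, CTGF, a secreted matricellular protein, was at 93.5 TPM with ESRP1 and 118 TPM with LPCX. CDK inhibitors and p53 targets had 16 of 24 above 0 and a median of 0.08 (-0.01 after median ratio scaling), with GDF15, a stress-induced cytokine, at 214 TPM with ESRP1 and 155 TPM with LPCX. EGFR, MAPK and immediate early genes had 13 of 20 above 0 and a median of 0.02 (-0.07 after median ratio scaling and -0.03 after rescaling over NM_ transcripts). Their largest difference was in SPRY2, a feedback inhibitor of receptor tyrosine kinase signalling, at 32.8 TPM with ESRP1 and 41.7 TPM with LPCX. Metallothionein and zinc genes had 7 of 9 above 0 with a median of 0.21, against -0.21 in MIA-PaCa2, and pancreatic cancer drivers 11 of 12 with a median of 0.15.

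**Figure D5:**
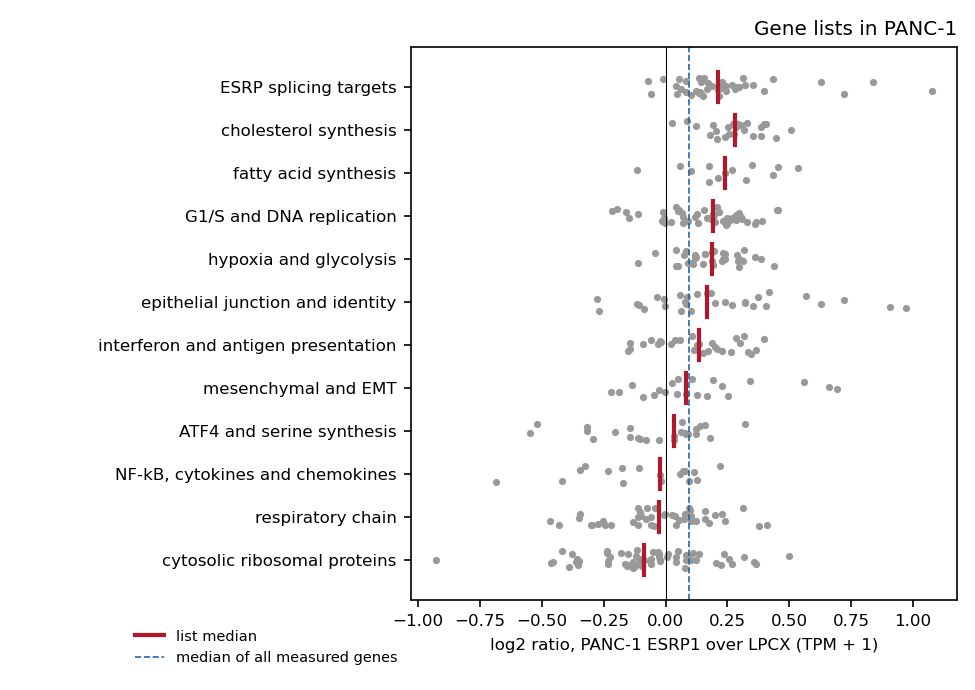
Log2 ratio of PANC-1 ESRP1 over PANC-1 LPCX (horizontal axis, TPM + 1) for each measured member of 12 gene lists (grey points). Red bars are list medians, from 0.28 for cholesterol synthesis to -0.09 for cytosolic ribosomal proteins, and the dashed line is the median of all measured genes, 0.09.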

How the data were processed

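RNA was extracted with easy-BLUE and sequenced from TruSeq mRNA libraries, per the labels' protocols. The authors deposited 1 table of transcript abundance with 1 column per library. Per the submitters' processing notes, Salmon and the builds GRCh38 and hg38 were used; their versions and settings were not given in the sources used here, nor was the annotation release. The deposited values are read as TPM: 8664 of 67792 lines are repeats, and once they are dropped, 59128 transcripts (45460 NM_, 13668 NR_) sum to 1000000 in each library. No counts are given, so depth is unknown and no interval was computed. Column names matched the labels, except that the MIA-PaCa2 ESRP2 and LPCX headers are misspelt and were assigned by elimination. The suffixes N and T in the headers are not explained.

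TPM was summed per gene symbol, and the log2 ratio of (TPM + 1) was taken for genes with an NM_ transcript and at least 5 TPM in either library. It understates the ratio of genes at low levels. A transcript share is its percentage of gene TPM, for transcripts at 10% or more in either library. For exons, RefSeq transcripts were paired one-to-one with GENCODE 29 transcripts (40648 pairs, 82.0% of TPM with ESRP1 and 82.7% with LPCX in PANC-1). An exon was read where the gene had 20 TPM and the transcripts around the exon 5 TPM in both libraries, where paired transcripts held 90% of gene TPM, and where inclusion was at least 5% in one library and at most 95% in one. Shares and inclusion rest on the estimates of Salmon, since no junction reads were used.

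Named genes were 12 fixed ones, the 15 highest and 15 lowest ratios, the 10 highest and 10 lowest at 20 TPM or more, the 15 genes with the largest share difference, the 12 most positive and 8 most negative exon differences, and up to 4 members a list. A few genes that the rule names are not reported here. Exceptions are named as chosen after their values were seen. The comparison, its members and the gene lists were chosen with earlier results of these data known. Alternatives changed the scaling, pseudocount, filters, fold and step. The arithmetic of the steps was checked by putting known folds and known inclusion into a copy of the PANC-1 LPCX values. That check held no error of quantification, so it does not bear on the precision of shares or inclusion. Python 3.11.15, pandas 2.3.3, numpy 2.4.6 and matplotlib 3.10.9 were used.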

Additional observations from a re-analysis of the deposited data

Results flagged for a closer look

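4 differences between ESRP1 and LPCX had opposite signs in the 2 cell lines, with 1 library behind each value, and whether the lines differ was not tested. U2AF1L5, a near copy of U2AF1, had a log2 ratio of 0.87 in PANC-1 and -1.19 in MIA-PaCa2. SERF1A, a near copy of SERF1B, had -1.45 in PANC-1 and 0.90 in MIA-PaCa2. The share of the FAM20B transcript NM_001324310 differed by -37.1 points in PANC-1, with 16.1% with ESRP1 and 53.2% with LPCX, and by 18.1 points in MIA-PaCa2, with 40.7% and 22.6%. An exon of NF2 not wholly within a coding sequence differed in inclusion by -13.1 points in PANC-1, with 9.66% with ESRP1 and 22.7% with LPCX. In MIA-PaCa2 it differed by 18.9 points, with 26.2% and 7.28%. The transcripts around this exon held 6.88 TPM in the lower of the PANC-1 ESRP1 and LPCX libraries.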

How the results depend on the processing

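No paired analysis was possible because each group holds 1 library, and for the same reason no library could be left out. Settings on 1.5-fold with another scaling, and on the TPM around an exon, were added after seeing the data. The 7 genes at least 2-fold higher and 4 lower became 15 and 8 with a pseudocount of 0.1 TPM, 2 and 2 with 5 TPM, 19 and 14 without a filter on level, 2 and 2 with a filter of 20 TPM, and 52 and 30 at 1.5-fold. Lower genes became 9 with median ratio scaling and 8 with rescaling over NM_ transcripts. At 1.5-fold these scalings gave 34 higher and 54 lower, and 52 and 50. Genes with a moved share numbered 350 (6.89% of transcripts), 966 (13%) at 5 TPM, 89 (3.64%) at 50 TPM and 45 (0.824%) at 20 points. Exons numbered 55 higher and 48 lower, 116 and 109 at 5 TPM, 27 and 13 at 50 TPM, and 13 and 7 at 20 points. Median ratio scaling turned the list medians of mesenchymal genes to -0.002, CDK inhibitors and p53 targets to -0.011, ATF4 to -0.056, EGFR and MAPK to -0.065 and integrins to -0.082, and the ratio of ZEB1 to -0.002. Rescaling over NM_ transcripts gave -0.017 for ATF4, -0.027 for EGFR and MAPK and -0.043 for integrins. Of 204 ratios (51 named genes under 4 alternatives), the other 203 kept their direction. DMC1 went to 0.107 when noncoding transcripts were left out. The cause of these shifts was not tested beyond the fewer or more features that a filter or step admits. Without read counts, the precision of low values is unknown.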
